A study of Arabidopsis thaliana with 27 samples.

Results

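Leaves of Arabidopsis thaliana that had spent 24 h at 38 °C were compared with leaves that had never been heated, on Affymetrix ATH1 arrays that measure 22746 probe sets. The comparison used 12 of the 27 arrays of the series, chosen by their labels alone: 3 arrays of the group Heat24hr and 9 arrays of the group Control24hr. All plants were wild type of ecotype Columbia (Col-0), raised on agar plates at 22 °C with 16 h of light and 8 h of dark. The samples are labelled leaf, while the paper states that aerial parts were harvested, so leaf here stands for the aerial parts. Heat24hr plants were moved to 38 °C at an age of 18 days and were harvested at 19 days, 3 h after the lights came on. Control24hr plants stayed at 22 °C and were harvested at the same hour at 18, 19 or 20 days of age, with 3 biological replicates at each age. Only Heat24hr plants of 1 age were measured, so no heated group stands beside the controls of 18 and 20 days. A second pair of groups is used below for the course of the response: Heat08hr (3 arrays, plants of 18 days, 8 h at 38 °C) and Control08hr (6 arrays, plants of 18 and 19 days), all harvested 11 h after the lights came on.

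Heat unfolds proteins, and plants answer it through heat shock transcription factors, which switch on genes for molecular chaperones. Small heat shock proteins hold unfolding proteins in a soluble form, and HSP70, HSP90 and their partners refold them. In leaves the heat-sensitive steps include photosystem II repair, Rubisco activation and the membranes of chloroplast and mitochondrion. A harvest shortly after dawn also catches the morning phase of the circadian clock, when CCA1 is normally high and the evening genes are low.

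The 12 arrays had nearly equal trimmed means, from 494.5 to 495.5, while the median signal was 119.8 to 130.6 on the heated arrays and 162 to 175.9 on the control arrays. Probe sets that had risen at least 16-fold took 5.87% to 5.94% of the summed signal on the heated arrays and 0.0899% to 0.126% on the control arrays, and the part of this in the lower medians was not tested. Over the 13410 probe sets whose signal averaged 100 or more on the 12 arrays, the SD of the log2 difference between 2 replicates was 0.402 to 0.495 in Heat24hr and 0.271 to 0.44 in Control24hr. The controls of 18, 19 and 20 days lay close together, since the typical (median) size of the log2 difference from 1 age to another was 0.0942 to 0.106 over the same probe sets, against 0.923 between heat and control. The label leaf was set against RCA, the Rubisco activase that mesophyll cells hold in abundance, which read 18500 ± 465 in heat and 34130 ± 4320 in control (mean ± SD). Both measured root hair markers were low, EXPA7 at 11.2 ± 13 and 38 ± 24.7 and EXPA18 at 24.2 ± 23.6 and 35.4 ± 20.6 in heat and control, and the stem cell genes WUS and CLV3 read 2.91 ± 1.86 and 14.2 ± 9.81, and 4.68 ± 1.81 and 5.83 ± 4.60. Of the guard cell genes, FMA read 292 ± 24.2 and 217 ± 34.5, and AT1G22690 fell from 2920 ± 355 to 955 ± 102 (adjusted p = 1.97e-07); the part of cell composition in the results was not tested.

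Heat changed a large share of the array. A probe set was called when its adjusted p was under 0.05 and it differed at least 2-fold: 3155 probe sets (13.9%) were called higher and 5095 (22.4%) lower in Heat24hr. Every count of called genes in the lists below is to be read beside these shares. Without the fold threshold, 5540 were higher and 7597 lower. The changes were often large, since 231 probe sets rose and 448 fell at least 16-fold. The split between rises and falls depended on the scaling, because the median log2 change of all probe sets was -0.22 as deposited and 0.19 after each array was centred on its median. Rises made up 38.2% of the calls as deposited, 49.3% after quantile normalization and 57.4% after median centring, which moved every log2 change up by about the gap between these medians. In aerial tissue taken whole, fewer cells of a type and less RNA per cell cannot be told apart, which holds for every fall described here.

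**Figure D1:**
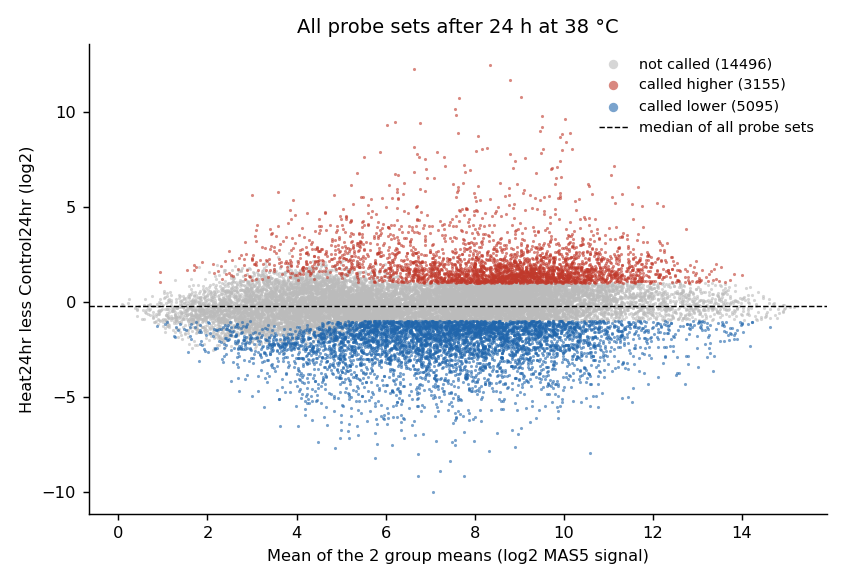
Each point is 1 probe set, placed by the mean of its group means (log2 MAS5 signal, horizontal) and by Heat24hr less Control24hr (log2, vertical). The 3155 probe sets called higher are red, the 5095 called lower are blue, and the dashed line is the median of all probe sets at -0.22.

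The 12 genes with the largest rises included HSFA2, 2 small heat shock proteins, 3 mitochondrial genes and the clock genes COR27 and AT4G33980, as well as genes outside every list used here. They were taken by a rule: among genes with adjusted p under 0.05, arrays of the 2 groups not overlapping and an average of 100 or more where the signal was higher, the 12 with the largest log2 rise and the 12 with the largest fall. AT1G48720, a protein-coding gene with no symbol, stood at 7094, 4671 and 6470 in Heat24hr, and 8 of the 9 control arrays were at the lowest value of the table, 1, with the other at 6.82. Its log2 change of 12.24 ± 0.53 (SE) therefore rests on that lowest value, and it was 8.42 when 16 was added to every signal. AT1G35050, annotated as a pseudogene, read 6323, 6282 and 5181 against controls of 1.04 to 24.6 (median 2.43), with a log2 change of 10.70 as deposited and 8.09 with 16 added. The probe sets of AT1G48720 and AT1G35050 each match several sequences, so the source of their signals is uncertain. HSFA2, the heat shock factor that maintains acquired thermotolerance, rose from 10.9 (control median, range 5.18 to 47.1) to 5257, 5000 and 4532 (log2 change 8.71 ± 0.55 (SE), adjusted p = 4.28e-08). AT1G71000 read 5238, 5279 and 4115 in heat and 2.36 to 28 (median 4.45) in control. In every one of these genes the lowest heated array was far above the highest control array.

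The deepest falls were of an expansin, a cell patterning gene and several genes without a symbol. EXPA8, an alpha-expansin that loosens cell walls, read 1.25, 10.1 and 3.26 in Heat24hr and 3012 to 4875 (median 3507) in Control24hr (log2 change -10.03 ± 0.44 (SE), adjusted p = 2.21e-09). AT1G13650 read 1.67, 2.73 and 11.1 against 1619 to 2948 (median 2052), and AT2G15020 2.29, 5.93 and 14.1 against 1153 to 1754 (median 1508). The heated arrays held next to none of these transcripts, so the exact fold is set by signals near the bottom of the scale: with 16 added to every signal the 3 log2 changes were -7.46, -6.70 and -6.03. AT5G48490 kept some signal, 50.8, 19.9 and 34.2 against 5570 to 7408 (median 6439) (log2 change -7.64 ± 0.21 (SE)). CHIL, a chalcone isomerase-like protein of flavonoid synthesis, read 31.2, 4.01 and 5.17 against 817 to 1898 (median 1504), and TRY, a MYB repressor of trichome fate, 24.3, 3.3 and 2.69 against 508 to 814 (median 647). The remaining 6 genes, AT5G22460, AT5G55450, AT5G02890, AT1G78995, AT1G65870 and AT1G70985, fell by log2 values of -7.54 to -6.79, each with heated arrays below 7.

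**Figure D2:**
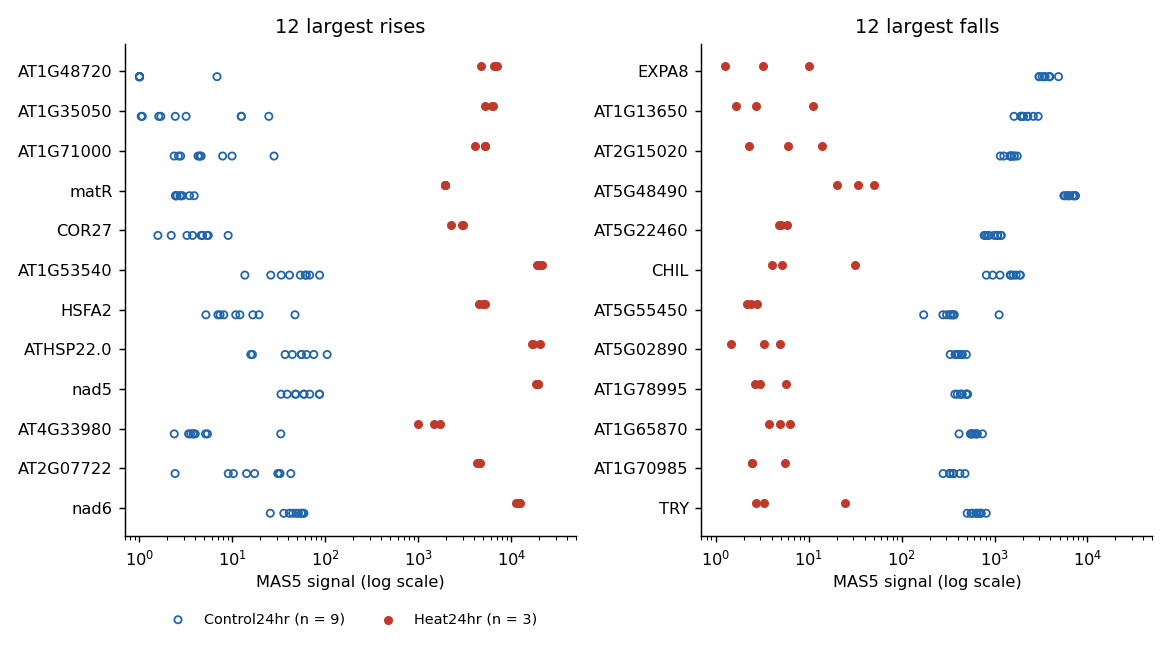
MAS5 signal (log scale) of each array for the 12 genes with the largest rises and the 12 with the largest falls, with 9 open control points and 3 filled heat points per gene. No heated array overlaps a control array in any of the 24 genes, as the choice of the genes required.

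Nearly all chaperone genes that could be named rose. Of 10 small heat shock proteins named, of 18 listed, 9 were called higher and none lower, with a median log2 change of 6.37 against -0.22 for all probe sets. AT1G53540 read 20070, 19050 and 21480 in heat and 13.6 to 86.6 (median 53.9) in control, a log2 change of 8.85 ± 0.47 (SE) (adjusted p = 1.01e-08). ATHSP22.0, which works in the endoplasmic reticulum, read 16820, 17340 and 20510 against 15.8 to 104 (median 55.1) (log2 change 8.69 ± 0.53 (SE)). AT2G29500 read 17360, 16110 and 19520 against 24.2 to 132 (median 61.1), and AT2G19310 13130, 13480 and 14340 against 558 to 1063 (median 905). The 3 replicates of heat lay within a narrow band for all 4 genes. The member that was not called, AT4G21870, read 418 ± 26 in heat and 316 ± 38 in control (mean ± SD, adjusted p = 0.00956); this difference passed the p threshold and missed the fold threshold.

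Partners of the large chaperones followed. Of 11 named, of 16 listed, 10 were called higher and none lower, with a median log2 change of 4.38. BAG6, a co-chaperone linked to stress and programmed cell death, rose from 34 (control median, range 10.2 to 49.9) to 6483, 5421 and 6899 (log2 change 7.77 ± 0.41 (SE), adjusted p = 9.37e-09). AT5G48570, the peptidyl-prolyl isomerase also called ROF2 or FKBP65, rose from 182 (control median, range 122 to 282) to 25920, 23910 and 28640. The HSP70-HSP90 organizing proteins rose unequally: Hop3 went from 68.7 (control median, range 49.5 to 131) to 9488, 8839 and 9408 (log2 change 7.01 ± 0.26 (SE)), Hop2 from 969 (control median, range 819 to 1126) to 5697, 4794 and 5150 (log2 change 2.42 ± 0.11 (SE)), and Hop1 by a log2 change of 1.58 ± 0.073 (SE). HSA32, which prolongs acquired thermotolerance, and Fes1A, a nucleotide exchange factor of HSP70, changed by 5.58 ± 0.20 (SE) and 4.38 ± 0.13 (SE). AT4G02450 was the exception at -0.25 ± 0.081 (SE) (adjusted p = 0.0191), under the fold threshold.

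Only 3 of the 28 listed HSP70, HSP90, HSP100 and chaperonin genes could be named, and all were called higher. Hsp70-2, a cytosolic HSP70, read 3282, 3287 and 2915 against 386 to 654 (median 560.2) (log2 change 2.61 ± 0.17 (SE)). Cpn60beta2, a subunit of the chloroplast chaperonin, read 21460, 20140 and 25160 against 5411 to 7034 (median 5938) (log2 change 1.83 ± 0.11 (SE)), and AT3G09440 read 8612, 8802 and 10080 against 2461 to 4508 (median 3550). These rises were smaller than those of the small heat shock proteins, and no Control24hr array read below 386 for any of the 3.

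Genes of protein folding in the endoplasmic reticulum rose by less. Of 6 named, of 24 listed, 5 were called higher and none lower, with a median log2 change of 1.25. BZIP28, a membrane-held transcription factor released by unfolded proteins, rose from 336 (control median, range 272 to 386) to 3627, 3523 and 3054 (log2 change 3.34 ± 0.10 (SE), adjusted p = 1.47e-10). BZIP60, another transcription factor of this list, read 1414, 1774 and 1019 against 509.7 to 798 (median 662) (log2 change 1.06 ± 0.17 (SE)). Without Heat24hr replicate 2 the log2 change of BZIP60 was 0.87, under the fold threshold. ATERDJ3B, a co-chaperone, read 2081, 2367 and 2113 against 904 to 1403 (median 930.0), and CRT1b, a calreticulin, 3650, 3462 and 3482 against 1719 to 2394 (median 1794). CRT1b was not called as deposited (log2 change 0.93 ± 0.10 (SE)) and was called after median centring, at 1.34.

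Genes of the mitochondrial genome rose together in heated leaves. Of 16 genes encoded in the mitochondrion, 15 were called higher and none lower, and their median log2 change was 5.56 as deposited, 5.98 after median centring and 5.59 after quantile normalization. The sum of these 16 genes took 0.607% to 0.641% of all signal in heat and 0.0128% to 0.0205% in control. matR, a maturase that acts on introns, rose from 2.73 (control median, range 2.45 to 3.88) to 1943, 1955 and 1942, a log2 change of 9.44 ± 0.14 (SE) (adjusted p = 2.95e-12). Its controls lay near the bottom of the scale, and with 16 added to every signal the change was 6.70. Its 3 heated arrays were almost identical. Subunits of respiratory complex I rose widely: nad5 from 58.7 (control median, range 33.3 to 86.5) to 19240, 18610 and 19450 (log2 change 8.42 ± 0.27 (SE)) and nad6 from 48.5 (control median, range 25.5 to 58.7) to 12520, 11380 and 12000 (log2 change 8.05 ± 0.22 (SE)), while nad4, nad7 and nad9 changed by 2.54, 4.86 and 5.47. The cytochrome oxidase subunit cox1 rose from 354 (control median, range 257 to 482) to 17040, 17060 and 19760, and cox2 from 61.7 (control median, range 37.4 to 89.5) to 15220, 16160 and 14570. Genes of cytochrome c biogenesis spread from 1.71 for ccb382 to 7.22 for ccb203. The member that was not called was nad2, at 31.3 ± 1.71 in heat and 45.6 ± 11.3 in control. The second probe set of nad5 rose as well.

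Chromosome 2 of this ecotype carries a copy of much of the mitochondrial genome, and the loci there rose with it. Of 47 probe sets named for loci from AT2G07670 to AT2G07779, a stretch chosen after its values were seen, 38 (80.9%) were called higher and 4 lower, beside 13.9% and 22.4% of all probe sets. Among the 30 whose probe set matches several sequences, 29 were called higher, with a median log2 change of 5.05, and among the other 17, 9 were higher and 4 lower. AT2G07722, one of the 12 largest rises, read 4474, 4624 and 4260 against 2.42 to 42.5 (median 17.3). Signals of near-identical nuclear and mitochondrial copies cannot be told apart on this array, so the source of these transcripts is uncertain. Genes of the chloroplast genome did not rise in this way: of 69, 3 (4.35%) were called higher and 19 (27.5%) lower, beside the same 13.9% and 22.4%, with a median log2 change of -0.60 (after median centring 4 higher, 9 lower and a median of -0.19). petN, a small subunit of the cytochrome b6f complex, rose from 329 (control median, range 234 to 342) to 1989, 1455 and 1477 and ndhK fell from 5545 (control median, range 4392 to 7206) to 1400, 1183 and 972. The other 2 rises were psbA, the D1 protein of photosystem II, at 1.01 ± 0.11 (SE), and atpH at 1.11 ± 0.24 (SE); without Heat24hr replicate 1 a single rise remained called among the 69. The genes atpB (25130, 22860 and 28400 against 30730 to 44860 (median 37580)) and atpE (26740, 24290 and 31560 against 29950 to 43480 (median 37010)) changed by -0.55 and -0.40 and were not called.

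The clock genes of heated leaves stood at levels far from those of an unheated morning. Of 8 clock genes named, of 33 listed, 5 (62.5%) were called higher and 1 (12.5%) lower, as deposited and under both other scalings. CCA1, the morning repressor of evening genes, fell from 4071 (control median, range 3542 to 4928) to 148, 178 and 116 (log2 change -4.84 ± 0.13 (SE), adjusted p = 6.32e-11). ELF4, a subunit of the evening complex, rose from 44.3 (control median, range 22.6 to 70.3) to 1513, 1699 and 1525 (log2 change 5.29 ± 0.31 (SE)), and its partner ELF3 changed by 3.24 ± 0.30 (SE). GI, an evening regulator of the clock and of flowering, rose from 195 (control median, range 156 to 278) to 982, 1086 and 1061 (log2 change 2.41 ± 0.19 (SE)). COR27, a cold-regulated repressor within the clock, rose from 4.60 (control median, range 1.58 to 8.99) to 2999, 2956 and 2222, a log2 change of 9.41 ± 0.43 (SE). AT4G33980 rose from 3.81 (control median, range 2.37 to 33.1) to 1492, 1700 and 996. The controls of both lay near the bottom of the scale, and with 16 added their log2 changes were 7.06 and 5.97. LKP2 and AT5G52660 were not called (log2 changes 0.35 ± 0.17 (SE) and -0.06 ± 0.15 (SE)).

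Unheated leaves taken 11 h after the lights came on give a second reference for these genes. CCA1 stood at 41.6 ± 25.3 (mean ± SD) in Control08hr, against 4167 ± 453 in Control24hr and 147 ± 30.9 in Heat24hr. COR27 stood at 1917 ± 225 in Control08hr, 4.43 ± 2.18 in Control24hr and 2726 ± 437 in Heat24hr. ELF3 stood at 616 ± 34.9, 72.1 ± 23.1 and 647 ± 36, and ELF4 at 3293 ± 358, 43 ± 15.9 and 1579 ± 104 in the same order. For each of these 4 genes the Heat24hr mean lay nearer to the Control08hr mean than to the Control24hr mean on a log scale. After 8 h of heat COR27 and AT4G33980 differed little from their controls (log2 changes 0.23 and 0.14), ELF4 was lower (-2.72) and CCA1 was higher (2.58). The 2 heat groups differ in length of heat, hour of harvest and age at harvest (18 and 19 days), so these cannot be told apart.

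**Figure D3:**
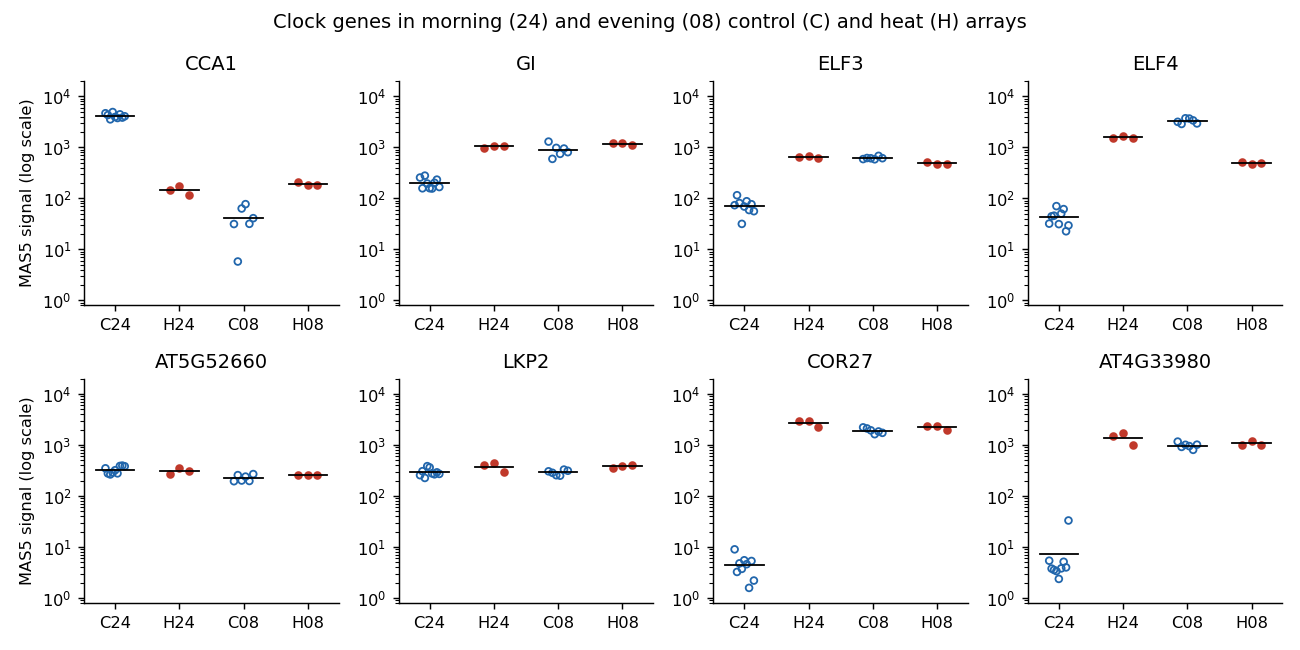
MAS5 signal (log scale) of 8 clock genes on every array of Control24hr (C24, 9 arrays), Heat24hr (H24, 3), Control08hr (C08, 6) and Heat08hr (H08, 3), with bars at the means. CCA1 is lower in H24 than in C24, while GI, ELF3, ELF4, COR27 and AT4G33980 are higher.

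The nuclear genes of photosynthesis that could be named fell or stayed under the fold threshold. They were 8 of 50 listed light-harvesting and photosystem genes and 4 of 23 listed Calvin cycle genes, so most of both lists was not seen. Of the 8, 6 were called lower and none higher, with a median log2 change of -1.61 (5 lower and a median of -1.19 after median centring). PSAN, a subunit of photosystem I, fell from 21570 (control median, range 20220 to 24830) to 1635, 1744 and 1460 (log2 change -3.76 ± 0.087 (SE), adjusted p = 2.08e-11). PSBY fell from 29730 (control median, range 25500 to 35630) to 9550, 10400 and 8506 and PSAE-1 from 25320 (control median, range 23010 to 31550) to 12280, 12360 and 11290; the log2 change of PSAE-1 was -1.14 as deposited and -0.73 after median centring, which ended its call. The antenna proteins of 1 family differed, since LHCB4.3 changed by -2.86 ± 0.14 (SE), LHCB4.2 by -2.02 ± 0.11 (SE) and LHCB4.1, at 19800, 19590 and 20700 against 26040 to 33600 (median 28590), by -0.52 ± 0.093 (SE).

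In the Calvin cycle 2 of the 4 named genes were called lower and none higher. SBPASE, the sedoheptulose bisphosphatase that controls regeneration of the CO2 acceptor, fell from 21360 (control median, range 17720 to 27420) to 1708, 1619 and 1647 (log2 change -3.75 ± 0.13 (SE), adjusted p = 2.9e-10). PRK, the phosphoribulokinase of the next steps, fell from 23780 (control median, range 21930 to 29890) to 7853, 7533 and 7791. RCA read 18110, 18390 and 19010 against 27500 to 39310 (median 33940) and AT1G56190 2604, 2659 and 2414 against 4217 to 5074 (median 4595); their log2 changes of -0.87 ± 0.12 (SE) and -0.84 ± 0.073 (SE) were under the fold threshold, with the arrays of the groups not overlapping. Photorespiration fell likewise, with 5 of 7 named genes, of 14 listed, called lower and none higher, although only 2 stayed called after median centring. GLDP2, the P protein of glycine decarboxylase, fell from 4628 (control median, range 3666 to 5138) to 325, 408 and 384 (log2 change -3.65 ± 0.11 (SE)), and HPR, which reduces hydroxypyruvate in the peroxisome, from 23640 (control median, range 21390 to 27360) to 7395, 7971 and 7625. AT1G11860 read 5395, 5687 and 5117 against 12810 to 15520 (median 14170), and PMDH2, a peroxisomal malate dehydrogenase, 11170, 11720 and 12200 against 14780 to 18740 (median 16660).

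Few chlorophyll genes could be named, and most of those of synthesis were not called. Of 7 genes of synthesis, of 23 listed, 2 (28.6%) were called lower and none higher, beside 22.4% and 13.9% of all probe sets. The other 5 were not called, and the median log2 change was -0.12 as deposited and 0.29 after median centring. HEME2, a uroporphyrinogen decarboxylase, fell from 4487 (control median, range 4050 to 4836) to 949.8, 791 and 775 (log2 change -2.41 ± 0.083 (SE)). CHLM, a methyltransferase of the chlorophyll branch, read 12120, 12670 and 11920 against 9793 to 11580 (median 10570), HEMB1 3872, 3966 and 3895 against 3470 to 4258 (median 3875) and GSA1 1851, 1841 and 2034 against 1884 to 2350 (median 2061). Of 5 genes of chlorophyll breakdown and senescence, of 19 listed, 2 (40.0%) were called lower and none higher. NOL, a chlorophyll b reductase, fell from 1478 (control median, range 1216 to 1608) to 264, 271 and 232 (log2 change -2.51 ± 0.093 (SE)), and SAG101 from 72.3 (control median, range 57 to 95.3) to 22.4, 39.9 and 21.4. The senescence genes SAG13 (21.1, 20.0 and 6.49 against 4.63 to 690.1 (median 32.4)) and WRKY53 (55.6, 62.8 and 42.5 against 16.9 to 91 (median 29.4)) overlapped between the groups.

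Starch genes and markers of sugar starvation gave no common direction. Only 4 of 16 listed starch synthesis genes and 3 of 18 listed starch breakdown genes could be named. Of 4 starch synthesis genes 3 were called lower: APL3, a large subunit of ADP-glucose pyrophosphorylase (114, 76.5 and 176 against 274 to 518 (median 405)), APL4 (58.2, 45.9 and 83.6 against 81.8 to 182 (median 147)) and ISA1, an isoamylase (368, 318 and 461 against 648 to 964 (median 787)). Without Heat24hr replicate 2 the log2 changes of APL4 and ISA1 were -0.89 and -0.94, so that APL3 alone stayed called, as it did after median centring and after quantile normalization. SBE2.2, a starch branching enzyme, read 2103, 2406 and 2413 against 1539 to 2053 (median 1764) and was not called. In starch breakdown BAM6, of the beta-amylase family, fell from 371 (control median, range 269 to 413) to 55.7, 70.8 and 54.2 (log2 change -2.55 ± 0.15 (SE)), while PWD (944, 1075 and 1014 against 456 to 714 (median 654)) and DPE1 (354, 299 and 465 against 221 to 318 (median 249)) were not called, although PWD was after median centring (1.11). Of 9 starvation genes, of 22 listed, 1 (11.1%) was called higher and 1 (11.1%) lower, beside 13.9% and 22.4% of all probe sets. After median centring 4 were higher. AT2G33830, the dormancy-associated gene also called DRM2, rose from 61.3 (control median, range 42.7 to 119.7) to 2096, 2182 and 1243 (log2 change 4.76 ± 0.31 (SE)), and D2HGDH, a dehydrogenase of lysine breakdown, fell from 320.5 (control median, range 283 to 349) to 32.5, 30.2 and 28.6. TPS11 read 1681, 2114 and 898 against 486 to 1037 (median 786) and was called only without Heat24hr replicate 3 (log2 change 1.31), without the 20-day controls (1.06) or after median centring (1.37). MCCB, of leucine breakdown, read 783, 518 and 508 against 753 to 936 (median 894).

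ATG8 proteins are joined to lipid on the autophagosome membrane. Of their 9 genes 5 (55.6%) were called higher and 1 (11.1%) lower, beside 13.9% and 22.4% of all probe sets. Their median log2 change was 1.36. ATG8D rose from 269 (control median, range 236 to 315) to 2700, 2699 and 2018 (log2 change 3.17 ± 0.11 (SE), adjusted p = 3.23e-10), APG8H from 2239 (control median, range 1484 to 2915) to 5570, 6460 and 4825, and ATG8H, ATG8B and APG8A by 2.16, 1.78 and 1.56. ATG8F moved the other way, from 3712 (control median, range 3431 to 4308) to 1299, 1430 and 989 (log2 change -1.64 ± 0.11 (SE)). ATG8C read 1856, 2103 and 1635 against 857 to 1143 (median 1082) and was called only after median centring.

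The named genes of both lists of specialized metabolism were called lower, although they were only 5 of 34 listed glucosinolate genes and 5 of 24 listed phenylpropanoid and flavonoid genes. The 5 glucosinolate genes were all called lower as deposited, with a median log2 change of -3.76 (4 of 5 after median centring). BCAT4, which starts the chain elongation of methionine, fell from 6431 (control median, range 5940 to 7810) to 408, 497 and 181 (log2 change -4.32 ± 0.23 (SE), adjusted p = 1.16e-08), and IPMI2, a later step of the same elongation, changed by -4.26 ± 0.11 (SE). APK, which supplies the sulfate donor, fell from 2784 (control median, range 2473 to 3501) to 527, 552 and 665, AT2G31790 from 2263 (control median, range 2045 to 2590) to 107, 178 and 249.9 and UGT74B1, which adds the glucose, from 1679 (control median, range 1513 to 2198) to 669, 784 and 653. UGT74B1 is the member that lost its call after centring, at a log2 change of -0.89. The 5 phenylpropanoid and flavonoid genes were called lower under all 3 scalings, with a median log2 change of -3.46 as deposited. C4H, at the entry of the pathway, fell from 2835 (control median, range 2523 to 3494) to 695, 777 and 568 (log2 change -2.11 ± 0.13 (SE)), and DFR, a reductase of the anthocyanin branch, from 501 (control median, range 339 to 1024) to 29.7, 22.9 and 6.10 (log2 change -5.07 ± 0.45 (SE)). The listed gene AT4G14090 read 1.68, 8.08 and 5.20 against 163 to 427 (median 276), and UGT78D2 355, 323 and 344 against 873 to 1203 (median 1008).

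Cell wall and cell cycle genes held falls and rises. Of 16 expansins and xyloglucan enzymes named, of 35 listed, 10 (62.5%) were called lower and 4 (25.0%) higher. The shares of all probe sets were 22.4% and 13.9%, and the median log2 change of the 16 was -1.48. After median centring 8 were lower and 5 higher. Beside EXPA8, described above, EXPA4, EXPA6 and EXP3 changed by -5.37, -3.64 and -3.64, and XTH4, which cuts and rejoins xyloglucan, fell from 7453 (control median, range 6089 to 10120) to 2140, 1829 and 2010. EXLA1, an expansin-like protein, rose from 28.7 (control median, range 1.94 to 38.4) to 1499, 1416 and 1162 (log2 change 6.21 ± 0.84 (SE)), and XTH18, XTH16 and XTH33 by 3.90, 1.46 and 1.17. EXGT-A3 read 1362, 1179 and 1268 against 1959 to 3042 (median 2765); its log2 change of -1.04 became -0.99 without Heat24hr replicate 2 and -0.63 after median centring, both under the fold threshold. Of 7 genes of the cell cycle and DNA replication, of 29 listed, 5 (71.4%) were called lower and 1 (14.3%) higher, as deposited and after median centring. CYCB1;4, a mitotic cyclin, fell from 103 (control median, range 64.1 to 161) to 3.21, 3.96 and 2.50 (log2 change -5.09 ± 0.26 (SE), or -2.69 with 16 added, since the heated arrays lay near the bottom of the scale) and PRL, a subunit of the replicative helicase, from 636 (control median, range 517 to 666) to 46.6, 16.8 and 66.3. PCNA2, the sliding clamp of DNA polymerase, rose from 777 (control median, range 560.3 to 849.9) to 1876, 1836 and 1625, and AUR2, an Aurora kinase, read 147, 145 and 144 against 199.9 to 279 (median 239.9) without being called.

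Of 4 auxin response genes, of 16 listed, 2 were called higher, both of the GH3 family that joins amino acids to auxin. GH3.3 rose from 84.3 (control median, range 18.2 to 135) to 9238, 11710 and 6683 (log2 change 7.02 ± 0.51 (SE), adjusted p = 1.43e-07) and WES1 from 140.2 (control median, range 109 to 220.0) to 443, 483 and 352. GH3.1 (33, 22.2 and 24.8 against 2.81 to 48.6 (median 31.3)) and IAA29 (39.5, 42.1 and 69.5 against 12.7 to 84.6 (median 50.3)) overlapped between the groups.

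Among the enzyme families of detoxification, only the UDP-glycosyltransferases had both shares of calls near those of the whole array. Of 26 glutathione S-transferases 4 (15.4%) were called higher and 9 (34.6%) lower, beside 13.9% and 22.4% of all probe sets, with a median log2 change of -0.35 as deposited and 0.07 after median centring. GSTU20 fell from 9596 (control median, range 8559 to 10830) to 344, 287 and 277 (log2 change -4.96 ± 0.092 (SE), adjusted p = 1.02e-11) and GSTF9 from 13220 (control median, range 11500 to 15360) to 978, 1032 and 909. GSTU4 read 304, 339.8 and 188 against 2.10 to 253 (median 8.71); it was called higher with overlapping arrays. GSTF8 read 8372, 8285 and 8492 against 5638 to 6562 (median 6116) and stayed under the fold threshold. Of 47 UDP-glycosyltransferases 7 were higher and 11 lower, shares of 14.9% and 23.4% that lie near those of all probe sets. UGT73C1 rose from 9.72 (control median, range 4.72 to 26) to 609, 444 and 520.0, UGT72B3 fell from 383 (control median, range 342 to 407) to 25.9, 25.6 and 27.4 and UGT88A1 from 5319 (control median, range 4976 to 6057) to 1847, 1948 and 1346. Of 43 cytochrome P450 enzymes 2 (4.65%) were higher and 14 (32.6%) lower, beside 13.9% and 22.4% of all probe sets. Of the 2 rises 1 was lost without Heat24hr replicate 2 and 1 without replicate 3. CYP711A1, an enzyme of strigolactone synthesis, fell from 505 (control median, range 421 to 589) to 25.4, 30.3 and 12.8 (log2 change -4.56 ± 0.21 (SE)), CYP71B26 fell from 1517 (control median, range 1218 to 1807) to 279.5, 238 and 342 and CYP94C1, which oxidises jasmonoyl-isoleucine, rose from 15.8 (control median, range 10.2 to 76.1) to 219, 221 and 149.9. CYP71B6 read 566, 509 and 522 against 862 to 1334 (median 1007) and was called only without the 19-day controls (log2 change -1.01).

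Of 10 antioxidant enzymes named, of 41 listed, 1 was called higher and 3 lower, beside 13.9% and 22.4% of all probe sets. GR1, a glutathione reductase, fell from 3554 (control median, range 2999 to 4019) to 354, 363 and 365 (log2 change -3.26 ± 0.10 (SE), adjusted p = 8.9e-11). CCS, which loads copper into superoxide dismutase, read 492, 559.9 and 441 against 144 to 331 (median 222); against the 19-day controls alone its log2 change was 0.90, under the fold threshold. The listed genes AT3G11630 (12100, 12320 and 12550 against 15640 to 19360 (median 17920)) and AT3G52960 (3317, 2906 and 3361 against 4878 to 5921 (median 5202)) were not called.

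Transcription factor families and defence or cold genes showed no single direction. Of 16 bZIP factors 4 (25.0%) were higher and 3 (18.8%) lower, beside 13.9% and 22.4% of all probe sets, among them BZIP28 and BZIP60 above, BZIP53, which rose from 977 (control median, range 893 to 1062) to 2448, 2296 and 2776, and BZIP24, which read 2.95, 36.5 and 6.86 against 37.2 to 86.4 (median 64.6). No bZIP factor was called lower against the 19-day controls alone, where BZIP24 changed by -2.86 and missed the p threshold, or among probe sets averaging 100 or more in either group. Of 13 WRKY factors 2 (15.4%) were higher and 2 (15.4%) lower, also to be set beside 13.9% and 22.4%. The weaker rise, WRKY12, a dim gene at 30.0 ± 4.46 in heat and 12.2 ± 9.21 in control, was not called in 7 alternatives, among them those without Heat24hr replicate 1, without replicate 3, without the 18-day controls and without the 19-day controls. WRKY25, which is also induced by pathogens, rose from 89 (control median, range 41 to 129.5) to 841, 787 and 500.0 (log2 change 3.08 ± 0.33 (SE)), and WRKY47 fell from 107 (control median, range 85.9 to 128) to 32.8, 28.9 and 38.7. WRKY21 (135, 107 and 319.5 against 275 to 366 (median 346), log2 change -1.01 ± 0.25 (SE)) lost its call without Heat24hr replicate 1 (-0.86), without replicate 2 (-0.69) and without the 18-day control replicate 1 (-0.9997, just under the threshold), and WRKY20 (249, 222 and 269.7 against 441 to 519.9 (median 486)) gained one without replicate 3 (-1.03). None of the 3 salicylate defence genes named, of 15 listed, was called. PR1 read 130.1, 116 and 128 against 112 to 3598 (median 158), WRKY33 266, 360.4 and 219.5 against 114 to 316 (median 170.4) and FRK1 16.6, 3.15 and 6.80 against 2.52 to 54 (median 9.29) (adjusted p = 0.489, adjusted p = 0.0862 and adjusted p = 0.642 in limma's test). WRKY33 was called higher after median centring, at a log2 change of 1.03. Of 5 cold and abscisic acid genes, of 28 listed, 2 (40.0%) were higher and 1 (20.0%) lower. STZ, a zinc finger repressor, rose from 36.9 (control median, range 13.2 to 101) to 643, 766 and 673 (log2 change 4.19 ± 0.47 (SE)) and COR47, a dehydrin, from 1722 (control median, range 1372 to 2050) to 6143, 6168 and 5097, while COR15A, a protein that protects chloroplast membranes in the cold, fell from 3030 (control median, range 2337 to 4114) to 459, 457 and 472 and COR15B read 513, 412 and 674 against 290.2 to 625 (median 435).

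**Figure D4:**
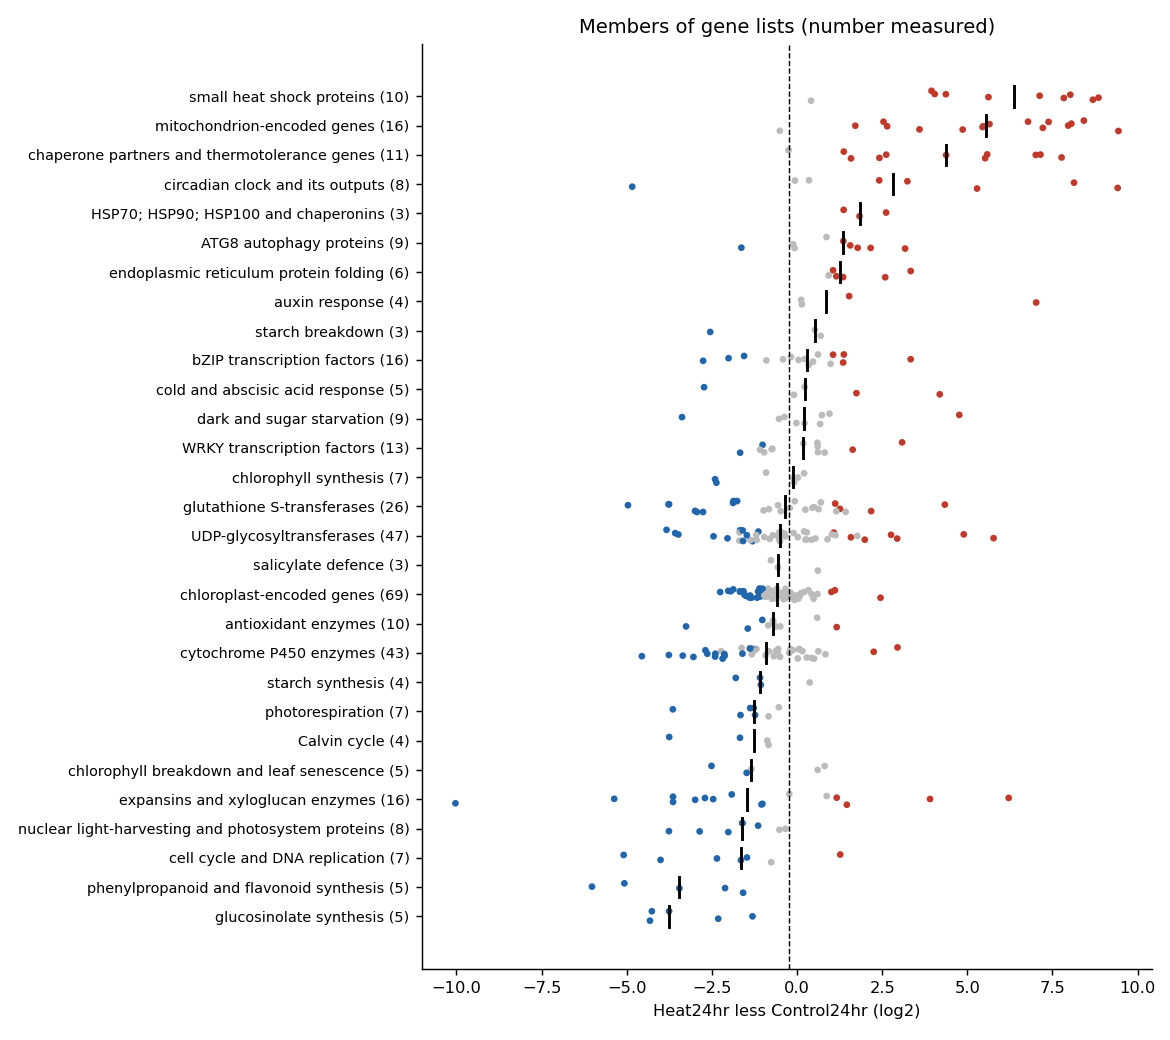
Each point is 1 gene of the list named at the left (number of genes measured in brackets), at its log2 change from Control24hr to Heat24hr; red and blue mark genes called higher and lower, black bars the list medians and the dashed line the median of all probe sets. Small heat shock proteins, mitochondrion-encoded genes and chaperone partners lie farthest to the right, at medians of 6.37, 5.56 and 4.38, and glucosinolate genes farthest to the left, at -3.76.

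The change after 24 h of heat was then set against that after 8 h, each measured from controls harvested at its own hour. Length of heat, hour of harvest and age of the heated plants cannot be told apart in this comparison. Heat08hr had 1905 probe sets (8.38%) called higher and 3710 (16.3%) lower. The difference between the changes had an adjusted p under 0.05 for 8173 probe sets (35.9%). Every count of differences below is to be read beside this share, which holds both directions together. Calls of the same direction in both comparisons numbered 3850, and calls of opposite direction 167, of which 67 were higher and 100 lower at Heat24hr. All 167 had an adjusted p under 0.05 for the difference. Calls of opposite direction on the same arrays nearly fix that outcome, so it adds no support.

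All 10 named small heat shock proteins and 9 of 11 chaperone partners were also called higher at 8 h. The median log2 change of the small heat shock proteins was 6.10 at 8 h and 6.37 at 24 h. The change differed between the times for 4 of the 10, beside 35.9% of all probe sets. AT5G37670 and AT2G19310 had a larger change at 24 h (differences 1.10 ± 0.25 (SE), adjusted p = 0.00171, and 1.09 ± 0.23 (SE), adjusted p = 0.000753). AT4G21870 had a smaller one, from 3.53 to 0.41 (difference -3.12 ± 0.23 (SE), adjusted p = 2.13e-09). AT1G52560 also had a smaller one, from 10.20 to 7.12 (difference -3.08 ± 0.95 (SE), adjusted p = 0.0149). Its control means were dim, at 4.43 in Control08hr and 15.95 in Control24hr, while its heated means were 4268 in Heat08hr and 1628 in Heat24hr. The size of this difference therefore rests partly on signals near the bottom of the scale, and it was not tested with an added constant. The other 6, ATHSP22.0 and AT1G53540 among them (-1.30 ± 1.01 (SE), adjusted p = 0.358, and -0.73 ± 0.95 (SE), adjusted p = 0.613), gave no called difference. Of the 3 HSP70 and chaperonin genes only Cpn60beta2 was called higher at 8 h, at 2.02. Hsp70-2 changed by -0.14 at 8 h and 2.61 at 24 h (difference 2.75 ± 0.21 (SE), adjusted p = 3.08e-09), and AT3G09440 by -0.37 and 1.37 (difference 1.74 ± 0.20 (SE), adjusted p = 8.77e-07). The partner AT4G28480 likewise changed by 0.06 and 1.37. Mitochondrion-encoded genes had a median log2 change of 4.30 at 8 h and 5.56 at 24 h; the change was larger at 24 h for matR (difference 2.03 ± 0.37 (SE), adjusted p = 0.000226) and nad5 (1.54 ± 0.36 (SE), adjusted p = 0.00192), but not called different for nad6 (0.26 ± 0.34 (SE), adjusted p = 0.619).

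Most named genes of photosynthesis had a lower change at 24 h than at 8 h, when few of them were called. All 8 named light-harvesting and photosystem genes and all 4 named Calvin cycle genes had a lower change at 24 h than at 8 h by this test, as did 6 of 7 photorespiration genes, with medians of -0.19, -0.31 and -0.48 at 8 h against -1.61, -1.27 and -1.27 at 24 h. At 8 h 1 of the 8, 1 of the 4 and 2 of the 7 were called lower. LHCB4.2 changed by 0.59 at 8 h, and its controls read 13550 ± 1640 at that hour and 26630 ± 2090 in the morning (mean ± SD). A difference in either direction was called for 35.9% of all probe sets. Some differences were small, such as -0.33 for PSBW and -0.40 for LHCB4.1, and these counts are not given under other scalings. The 16 cell wall genes divided, with a lower change at 24 h for 8 and a higher one for 3. The 7 cell cycle genes had a median of -2.64 at 8 h and -1.65 at 24 h: the change was higher at 24 h for MCM5, AUR2 and PCNA2 and lower for PRL, and PCNA2 went from -0.78 to 1.27 (difference 2.05 ± 0.17 (SE), adjusted p = 1.31e-08). EXPA8 changed by -2.60 at 8 h and -10.03 at 24 h (difference -7.43 ± 0.52 (SE), adjusted p = 1.21e-09). AT1G13650 and AT2G15020 changed by -1.37 and -0.28 at 8 h, where AT2G15020 read only 33.4 ± 21.8 in the control, against 1489 ± 186 in the morning control (mean ± SD). GH3.3 changed by 4.30 at 8 h and 7.02 at 24 h (difference 2.71 ± 0.81 (SE), adjusted p = 0.0127). ATG8D changed by 0.08 and 3.17 (difference 3.10 ± 0.14 (SE), adjusted p = 1.98e-12).

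**Figure D5:**
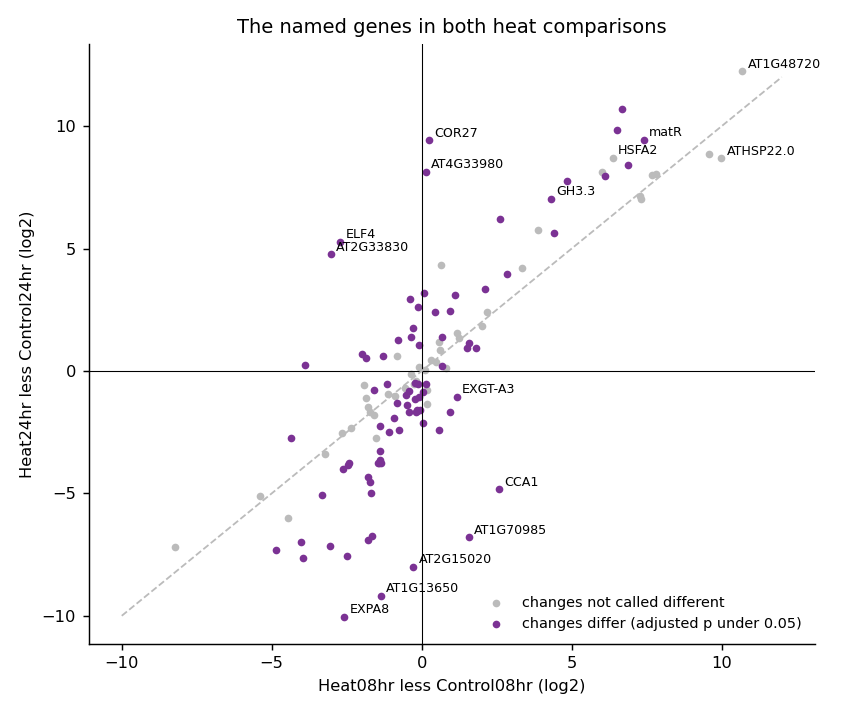
Each of the 128 named genes is placed by its log2 change after 8 h of heat (Heat08hr less Control08hr, horizontal) and after 24 h (Heat24hr less Control24hr, vertical), purple where the 2 changes differ at an adjusted p under 0.05; the dashed line marks equal changes. COR27 and AT4G33980 lie high with almost no change at 8 h, and ELF4 and CCA1 changed in opposite directions at the 2 times.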

How the data were processed

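RNA from the aerial parts was labelled with biotin and hybridised to 1-colour Affymetrix ATH1 arrays. The deposited values are linear intensities, 1 MAS5 signal per probe set and array, with replicates kept apart. The authors summarised the arrays with MAS5; their methods also name a baseline to the median of all samples in GeneSpring, which these values do not carry. How the arrays were scaled and the genome build are not given in the sources used here. The lowest value of the table is 1, and detection calls were not used here.

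Signals were converted to log2. Heat24hr and Control24hr were compared with limma 3.58.1 in R 4.3.3 (lmFit and eBayes on those 12 arrays, no covariate), with Benjamini-Hochberg adjustment over all 22746 probe sets; the difference from the 8 h change was a contrast over the 4 groups. Each limma fit gives the SE and adjusted p printed. A call needed an adjusted p under 0.05 and a 2-fold change. The code was tested on simulated data. Alternatives were other scalings, added constants, filters, thresholds, control sets and omitted replicates.

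Probe sets were named through the platform annotation, RefSeq (TAIR10.1) and the study's own gene tables: 14392 had 1 gene, 555 had several, and 7799 had none. Where a gene had more than 1 probe set, the brightest was used. Members of gene lists and the lists themselves were chosen with earlier results of these data known. Named genes were the 12 largest rises and falls, and in each list with at least 3 measured members the strongest rise, the strongest fall and then the brightest genes, up to 4; any other gene was named with its values known. The number of arrays limits the precision.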

Additional observations from a re-analysis of the deposited data

Results flagged for a closer look

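For 5 genes the changes after 24 h and 8 h of heat were both called, in opposite directions. The differences between them also had adjusted p under 0.05, which such calls on the same arrays make nearly certain. AT1G70985 changed by -6.79 at 24 h and 1.57 at 8 h on the log2 scale, a difference of -8.36 ± 0.42 (SE), adjusted p = 9.14e-12. Its rise at 8 h lay between dim signals, 12.15 ± 4.78 in Control08hr and 33.59 ± 0.767 in Heat08hr (mean ± SD). In the morning it read 361.7 ± 58.8 in Control24hr and 3.50 ± 1.8 in Heat24hr, so its unheated level also differed between the hours. CCA1 changed by -4.84 and 2.58 (difference -7.42 ± 0.69 (SE), adjusted p = 5.97e-08). ELF4 changed by 5.29 and -2.72 (difference 8.00 ± 0.36 (SE), adjusted p = 2.36e-12). AT2G33830 changed by 4.76 and -3.03 (difference 7.79 ± 0.38 (SE), adjusted p = 6.37e-12). The xyloglucan enzyme gene EXGT-A3 changed by -1.04 and 1.17 (difference -2.21 ± 0.16 (SE), adjusted p = 1.47e-09).

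For 12 of the 128 named genes a single control array lay apart from the other 8, by a test of the gap between log2 signals against the range that chance passes in about 1 group in 20. The first replicate of the 18-day controls was that array for 6 of the 12. It read 3598 for PR1 (others 111.5 to 209), 690 for SAG13 (others 4.63 to 38.6), 1120 for AT5G55450 (others 172.8 to 368), 1403 for ATERDJ3B (others 904 to 1004) and 2394 for CRT1b (others 1719 to 1909), all highest, and 3666 for GLDP2, the lowest (others 4499 to 5138). Without this array, a setting chosen after seeing the data, 3184 probe sets were called higher and 5055 lower. A 19-day control read 6.82 for AT1G48720, where the others were all at the lowest value of the table, 1, so that any value above 1 would have stood apart. Another 19-day control read 2.81 for GH3.1 (others 20.9 to 48.6). The third 18-day control read 33.1 for AT4G33980 (others 2.37 to 5.39). Single 20-day controls were lowest for AT1G65870, at 415 (others 552.7 to 741), for PWD, at 455.6 (others 569.4 to 714.5), and for WRKY21, at 274.8 (others 319 to 366).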

How the results depend on the processing

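Rises numbered 3155 as deposited, and 4872 after median centring and 5540 without a fold threshold; under every other alternative they stayed within 1.5 times. Falls stayed within 1.5 times of 5095 in the 16 alternatives run. The difference between the 24 h and 8 h changes stayed within 1.5 times of 8173 in the 8 run for it, which did not include other control sets, an added constant or other thresholds. Without 1 Heat24hr replicate there were 3017 to 3032 rises, 4856 to 5136 falls and 7491 to 7907 differences; without the 18-day control replicate 1 there were 3184 rises and 5055 falls. With the replicate block there were 3134 rises, 5099 falls and 8251 differences. Deviations of same-numbered arrays from the means of their group and age correlated weakly, at r = -0.03 to 0.15 (median 0.04). Arrays of different number gave r = -0.19 to 0.06 (median -0.01). Same-numbered pairs of a heated and a control array gave r = -0.03 to 0.05. Same-numbered control arrays of different age were all positively correlated, at r = 0.02 to 0.15.

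Of 98 called named genes, 88 kept call and direction in all 14 alternatives and none reversed. Uncalled genes changed sign as follows, and the cause was not tested: HEMB1 (AT1G69740) was -0.011 against 19-day controls and -0.070 after quantile normalization; GSA1 (AT5G63570) 0.29 and atpE (ArthCp028) 0.015 after median centring; FRK1 (AT2G19190) 0.17 against 19-day controls, 0.17 without 18-day controls and -1.17 to 0.023 without 1 Heat24hr replicate; IAA29 (AT4G32280) -0.14 to 0.27 and GH3.1 (AT2G14960) -0.022 to 0.26 without 1 replicate; GH3.1 was also -0.012 with 16 added and -0.23 without 19-day controls. Of 58 list counts, 13 moved by over 1.5 times in at least 1 alternative, most of them counts of 5 or fewer. Signals near 1 carry no reliable fold.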
